A study of Mus musculus with 10 samples.

Results

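Sall3, 9330159F19Rik, 2410137M14Rik, Inhbb, BC096441 and H2-M5 are 6 of the 22713 genes in the deposited mRNA tables of mouse embryonic stem (ES) cells. They were taken as a list of symbols matched to Ensembl IDs, and each was higher in both libraries with knockdown of linc1253, a large intergenic noncoding RNA, than in both control libraries. The 6 genes were thus chosen by their CPM in the knockdown and control libraries, and those values are given as a description, with no test. Their levels at other conditions, their chromosomal neighbours, their promoter sequences and the Pontin ChIP-seq reads at their promoters are not part of that rule.

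The study asked how the chromatin remodelling factor Pontin (Ruvbl1) and the transcription factor Oct4 (Pou5f1) act together in ES cells, and which genes are kept low by linc1253. In Pontinf/f; CreER ES cells, 4-hydroxy tamoxifen (OHT) activates a Cre recombinase fused to an estrogen receptor, which deletes the floxed Pontin alleles. These cells gave 1 library without OHT (WT), 1 at 3 days (OHT 3D) and 1 at 4 days (OHT 4D). ZHBTc4 ES cells have tetracycline-repressible Oct4 and gave 1 library after 2 days of tetracycline (Tc 2D). ZHBTc4 ES cells with Oct4 on, infected for 4 days with pLKO control lentivirus (2 libraries) or with pLKO-shlinc1253 lentivirus (2 libraries), made up the knockdown experiment. The ChIP-seq had 1 library with an anti-Pontin antibody and 1 with an anti-GFP control antibody, both from ZHBTc4 ES cells. The labels name 1 shRNA against linc1253 and 1 line for each model, and do not say whether the 2 libraries of a group came from separate cultures. WT and Tc 2D came from different ES cell lines.

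Sall3 encodes a spalt-like zinc finger transcription factor of developing tissues. Inhbb encodes the beta B subunit of inhibins and activins, secreted ligands of the TGF-beta family. 2 such subunits form activin B, which signals through Smad2 and Smad3 as Nodal does in ES cells, whereas a subunit paired with Inha forms inhibin B, an antagonist. H2-M5 is a class I gene in the M region at one end of the mouse major histocompatibility complex (MHC). BC096441 lies over the genes for the cytokines Tnfsf12 and Tnfsf13, and 9330159F19Rik and 2410137M14Rik carry RIKEN clone names.

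In the NCBIM37 genome, 2 of the 6 genes are neighbours. 2410137M14Rik (ENSMUSG00000064308, chr17:37114646-37118182) and H2-M5 (ENSMUSG00000024459, chr17:37121006-37126482) both lie on the minus strand and are 2.82 kb apart, with no other expressed gene between them. The others lie on separate chromosomes, 9330159F19Rik (ENSMUSG00000004360) at chr10:28931449-28950585, Inhbb (ENSMUSG00000037035) at chr1:121312042-121318825, BC096441 (ENSMUSG00000018752) at chr11:69496079-69509600 and Sall3 on a chromosome given with its neighbours. All are annotated as protein-coding, and 9330159F19Rik alone lies on the plus strand. Of the 2235 exon bases of BC096441, only 489 are its own. It shares 983 with Tnfsf13, 731 with Tnfsf12 and 253 with 2010012P19Rik on the opposite strand. Tnfsf13 and Tnfsf12 lie on the same strand as BC096441. Of these overlapping genes, only Tnfsf13 is among the deposited genes. How reads in shared exons were assigned, and whether strand was used, is not stated. The counts of BC096441 are therefore uncertain throughout.

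The promoters of the adjacent 2410137M14Rik and H2-M5 are shown here with those of Inhbb and 9330159F19Rik, which had the highest and the lowest ratio of Pontin to GFP reads. Each runs 5′ to 3′ on the strand of the gene, from 250 bases before to 50 bases after the annotated start. Capitals mark matches, on either strand, to 5 short motifs, which were the TATA element TATAAA, the GC box written GGGCGG, the CAAT box written CCAAT, the E-box written CACGTG and the octamer of POU factors written ATGCAAAT.
2410137M14Rik (chr17:37118133-37118432, minus strand): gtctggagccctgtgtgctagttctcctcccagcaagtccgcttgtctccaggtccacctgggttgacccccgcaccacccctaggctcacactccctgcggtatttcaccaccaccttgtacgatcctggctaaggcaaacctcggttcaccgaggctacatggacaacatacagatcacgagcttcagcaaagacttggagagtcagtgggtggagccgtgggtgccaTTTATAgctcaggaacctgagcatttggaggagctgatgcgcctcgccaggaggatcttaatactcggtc
H2-M5 (chr17:37126433-37126732, minus strand): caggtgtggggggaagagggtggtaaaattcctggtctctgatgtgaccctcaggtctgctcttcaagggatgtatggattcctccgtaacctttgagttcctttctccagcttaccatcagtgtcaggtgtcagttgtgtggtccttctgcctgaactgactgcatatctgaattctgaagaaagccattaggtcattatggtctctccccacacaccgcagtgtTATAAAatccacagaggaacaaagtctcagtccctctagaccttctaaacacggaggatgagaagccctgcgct
Inhbb (chr1:121318776-121319075, minus strand): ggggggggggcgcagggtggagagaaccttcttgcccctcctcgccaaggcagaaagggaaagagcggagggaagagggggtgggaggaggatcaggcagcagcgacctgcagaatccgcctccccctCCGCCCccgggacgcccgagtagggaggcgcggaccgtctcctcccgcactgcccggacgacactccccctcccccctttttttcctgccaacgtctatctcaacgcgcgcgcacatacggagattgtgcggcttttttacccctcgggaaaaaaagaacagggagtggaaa
9330159F19Rik (chr10:28931199-28931498, plus strand): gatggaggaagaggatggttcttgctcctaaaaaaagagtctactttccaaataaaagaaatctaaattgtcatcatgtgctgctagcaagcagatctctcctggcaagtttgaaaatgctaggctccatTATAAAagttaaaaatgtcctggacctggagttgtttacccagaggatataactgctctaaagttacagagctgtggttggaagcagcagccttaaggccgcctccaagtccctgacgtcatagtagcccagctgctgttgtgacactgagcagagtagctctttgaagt

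TATAAA occurred in 3 of the 6 promoters and in 13.4% of the 22375 promoters of the annotation. In H2-M5 it stood at base -24 as written, in 2410137M14Rik at base -20 as its reverse complement and in 9330159F19Rik at base -120. GGGCGG, held by 43.4% of all promoters, occurred in Inhbb, BC096441 and Sall3. The octamer, held by 1.73% of all promoters, occurred in Sall3, whose sequence is not shown. CACGTG, held by 7.78%, occurred in none of the 6, and CCAAT, held by 37.9%, in Sall3 and BC096441. The promoters also differed in CpG content. Sall3 had 46 CpG dinucleotides in this window and Inhbb 23, against a median of 11 over all promoters. 2410137M14Rik had 11, BC096441 and H2-M5 had 4 each and 9330159F19Rik had 2. A match is a run of letters and not a measured binding site.

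The mRNA libraries held 17187595 to 37951742 reads on genes, with the largest number in knockdown replicate 1. The normalized read count (CPM) of Pontin was 33.3 (OHT 3D) and 50.9 (OHT 4D) against 198 in WT, and that of Oct4 was 21.1 at Tc 2D against 301 in WT. Pontin was also lower at Tc 2D, with 85.0. In the ZHBTc4 control libraries Pontin was at 166 and 186 and Oct4 at 642 and 582. No level of linc1253 was analysed here, so the knockdown rests on its label. Of 13407 genes that exceeded 1 CPM in any of the 4 shRNA libraries, 2520 (18.8%) were higher in both knockdown libraries than in both controls and 2576 (19.2%) were lower in both. Across all genes, limma called 0 genes up and 0 down at an adjusted p of 0.05, and 496 (3.7%) up and 503 (3.75%) down at an unadjusted p of 0.05. The quasi-likelihood test of edgeR called 0 and 0 after adjustment (497, or 3.71%, and 513, or 3.83%, before). DESeq2 called 22 (0.209%) up and 28 (0.265%) down of 10547 genes with an adjusted p, and 284 (2.12%) up and 301 (2.25%) down before adjustment. These p-values measure only the spread between these libraries, which may be technical.

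After knockdown of linc1253, the 6 genes were between 1.72-fold and 2.82-fold higher by the ratio of group means. Their log2-fold-changes, taken as differences of the mean log2 of CPM plus 1, put Sall3 to BC096441 at ranks 1 to 5 and H2-M5 at rank 12 of 1880 genes that had the same pattern and averaged at least 5 CPM. Those 1880 are 18.1% of the 10374 genes at that level. The genes nearest to the list that are not in it were Adcy2 at 0.84, Coch at 0.81 and Lrrn2 at 0.80, between BC096441 at 0.85 and H2-M5 at 0.78.

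Sall3 had a CPM of 7.84 and 8.13 in the control libraries and of 23.5 and 21.5 in the knockdown libraries. Both knockdown libraries stood far above both controls, and every comparison of 1 knockdown with 1 control library gave between 2.65-fold and 3.00-fold. The log2-fold-change was 1.39. The other members of the spalt-like family were followed beside it. Sall4, which acts with Oct4 in ES cells, had a CPM of 265 and 251 in the controls and 283 and 267 in the knockdown, a log2-fold-change of 0.09. Sall1 had a log2-fold-change of 0.20 and Sall2 of 0.10, and of these 3 genes Sall4 alone was higher in both knockdown libraries. None of the 3 was called by limma, edgeR or DESeq2 after adjustment.

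9330159F19Rik had a CPM of 4.38 and 4.60 in the controls and of 9.74 and 9.52 in the knockdown. The libraries of each group lay close together, and the 4 single comparisons ranged from 2.07-fold to 2.22-fold, with a log2-fold-change of 0.95. It rested on 95 and 107 reads in the controls.

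The remaining 4 genes had a wider spread between the libraries of a group. 2410137M14Rik had a CPM of 15.3 and 10.06 in the controls and of 29.1 and 21.0 in the knockdown. Inhbb had 65.6 and 46.0 in the controls and 116 and 91.4 in the knockdown. H2-M5 had 90.6 and 74.0 in the controls and 151 and 131 in the knockdown. In all of them replicate 1 was higher than replicate 2 in both groups, and the groups did not overlap. BC096441 was alike in this, with 9.04 and 5.94 in the controls and 17.4 and 11.3 in the knockdown. The lowest knockdown library exceeded the highest control library by 1.37-fold for 2410137M14Rik, 1.39-fold for Inhbb, 1.25-fold for BC096441 and 1.45-fold for H2-M5. Without knockdown replicate 1, the log2-fold-change of BC096441 went from 0.85 to 0.56, and that of no other gene of the 6 moved by more than 1.5 times when 1 library was left out.

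Per kilobase of exon, the order of the control libraries was H2-M5 with 34.5 and 28.2 CPM per kb, then 2410137M14Rik with 17.3 and 11.4 and Inhbb with 15.4 and 10.8, which did not differ beyond their spread. BC096441 followed with 4.05 and 2.66, and Sall3 with 1.14 and 1.18 was above 9330159F19Rik with 0.776 and 0.815. The place of BC096441 is uncertain, as its CPM was divided by all 2235 exon bases and only 489 are its own. In the knockdown libraries 2410137M14Rik reached 33.1 and 23.8 CPM per kb and Sall3 3.41 and 3.13.

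**Figure D1:**
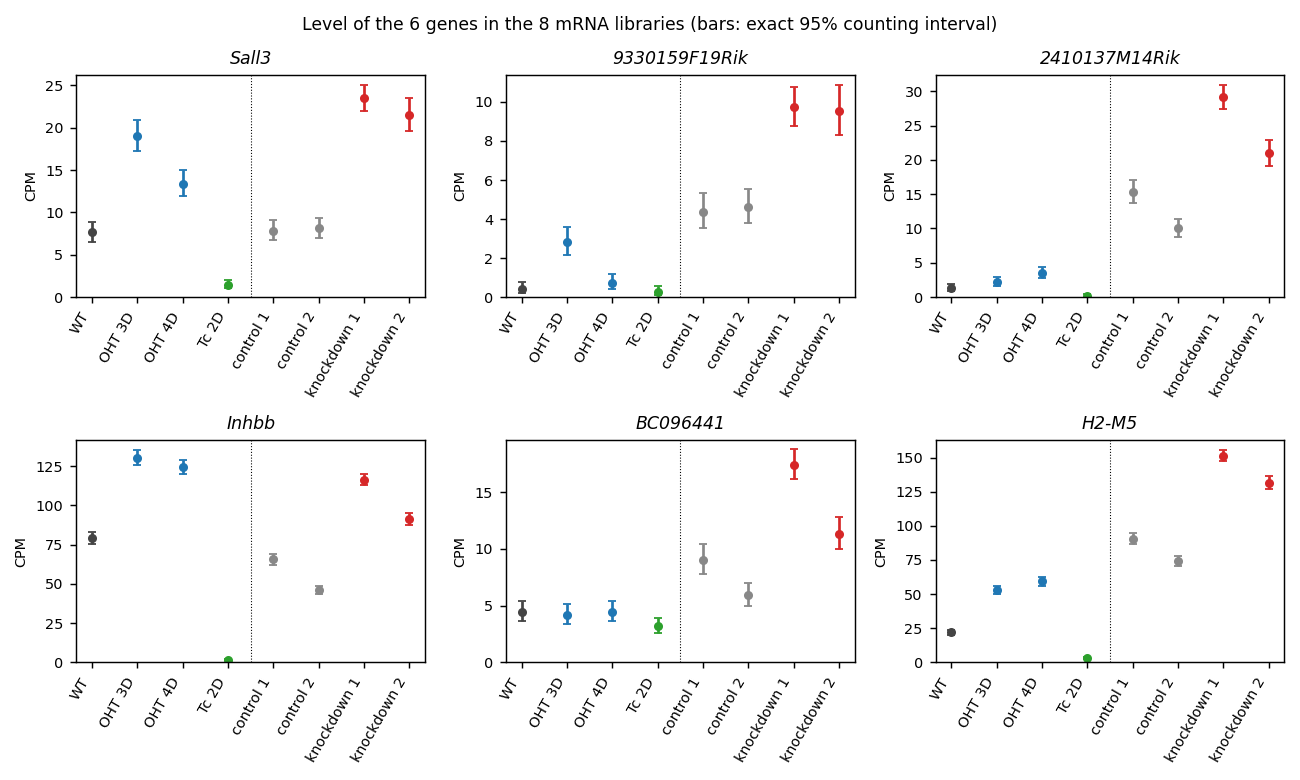
CPM of each of the 6 genes in the 8 mRNA libraries, 1 panel per gene with its own axis from 0, with bars for the exact 95% counting interval. The dotted line separates the 2 tables, which were normalized apart. In every panel both knockdown libraries are above both controls, and Tc 2D is the lowest of all 8 libraries.

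Markers of feeder fibroblasts and of primitive endoderm were higher in 1 of the 2 knockdown libraries. ES cells were grown on fibroblast feeders or without them, and the labels do not say which. Of 20 tested fibroblast markers 3 were higher in both knockdown libraries and 2 lower (beside 18.8% and 19.2% of all genes), with a median log2-fold-change of 0.44, and of 11 tested primitive endoderm markers 4 were higher and 0 lower, with a median of 0.40. The summed CPM of 24 fibroblast markers without Fn1, which ES cells also express, was 113 and 107 in the controls and 116 and 184 in the knockdown, and no marker of the list was at 0 in all 8 libraries. Acta2, a smooth muscle actin of fibroblasts, had 0.277 and 3.31 CPM in the controls and 0.180 and 17.7 in the knockdown, so replicate 2 held more of it in both groups. Between the libraries numbered 1, the median difference was 0.01 for the fibroblast and 0.02 for the primitive endoderm markers, and between those numbered 2 it was 0.83 and 0.74. With knockdown replicate 2 left out the medians were -0.15 and 0.03, and with knockdown replicate 1 left out 0.93 and 0.70. Between the libraries numbered 1, Sall3 was 3.00-fold and H2-M5 1.67-fold higher, which the rule for the 6 genes requires in direction. Whether these markers bear on the knockdown values of the 6 genes was not tested.

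The chromosomal neighbours of the 6 genes were followed in the same libraries. In the H2-M5 region, 9 tested genes besides 2410137M14Rik and H2-M5 started within 200 kb of each of these 2 genes. 3 of the 9 were higher in both knockdown libraries and 2 were lower, where 18.8% and 19.2% of all genes were, with a median log2-fold-change of 0.06. Zfp57, a zinc finger gene needed to keep imprinted DNA methylation, lies 11.6 kb from H2-M5 and had a CPM of 447 and 439 in the controls and of 533 and 567 in the knockdown, a log2-fold-change of 0.31. Znrd1as, 12.1 kb from 2410137M14Rik on the other side, had a log2-fold-change of -0.17.

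9330159F19Rik also had a neighbour that was higher. 6330407J23Rik, 12.01 kb away and on the same strand, had a CPM of 19.6 and 18.4 in the controls and of 35.8 and 30.2 in the knockdown, a log2-fold-change of 0.76 and rank 13, next after H2-M5. On the other side Echdc1, 82.4 kb away, had a log2-fold-change of 0.25. Sall3 (ENSMUSG00000024565) lies at chr18:81163115-81183317. Of its neighbours, Atp9b (32.3 kb away) had a log2-fold-change of 0.04 and Mbp (1461 kb away) of -0.40. Around Inhbb, Ralb (48.1 kb away) had -0.21 and Gli2 (362 kb away) 0.15. Of 25 tested genes that started within 200 kb of BC096441, 5 were higher in both and 9 lower (18.8% and 19.2% of all genes), with a median of -0.10. The highest of the 25 was Tnfsf13, at 0.55, whose exons BC096441 shares. Tnfsf13 had 0.923 and 1.12 CPM in the controls and 2.32 and 1.62 in the knockdown. Of the other expressed neighbours, Senp3 (0.492 kb away) had a log2-fold-change of 0.15 and Polr2a (37.9 kb away) of 0.26.

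**Figure D2:**
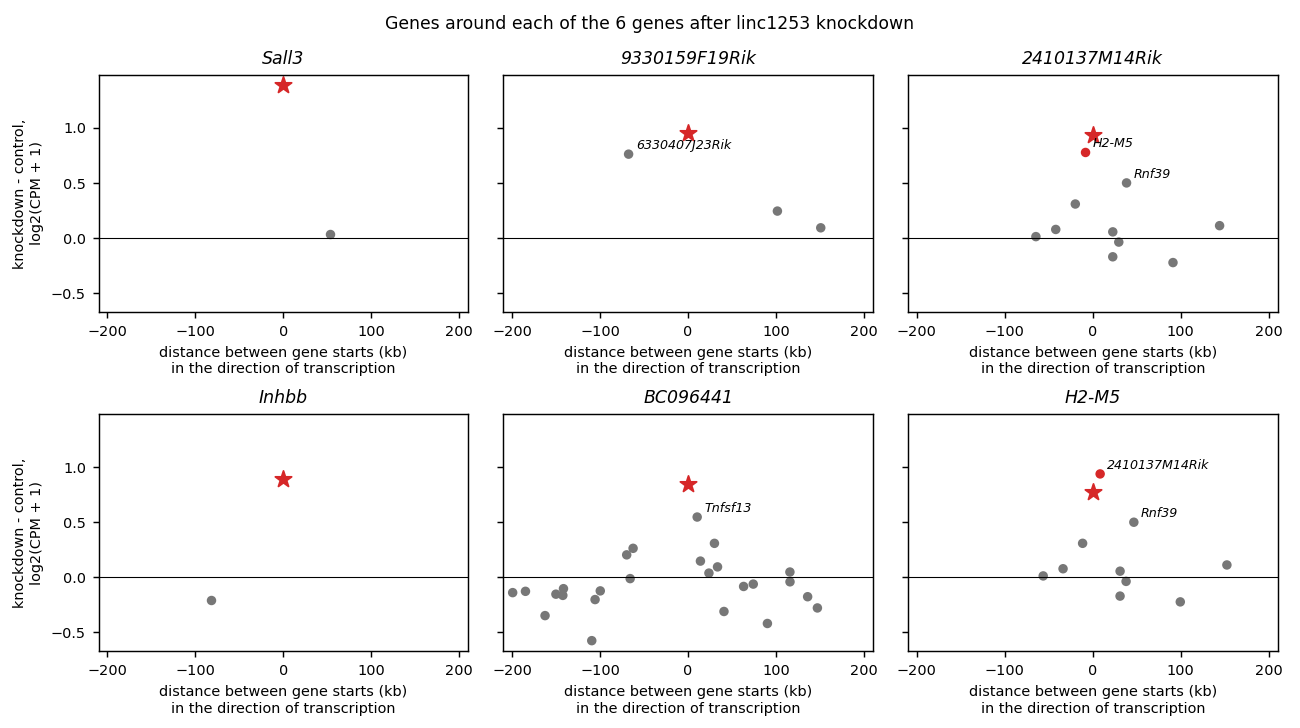
Difference of mean log2(CPM + 1) between knockdown and control libraries for tested genes whose start lies within 200 kb of each of the 6 genes, by distance between starts in the direction of transcription of the gene named above the panel. The star is that gene, red points are others of the 6, grey points are other genes, and genes above 0.5 are named. 6330407J23Rik at 0.76 stands beside 9330159F19Rik, and the single gene in the Sall3 panel, Atp9b, lies at 0.04.

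The rule by which the 6 genes were listed does not use the libraries with Pontin depletion, although the list was drawn up with earlier results of these data known. Each time point is 1 library against the 1 WT library, so there is no test, and both time points share that WT library. 9330159F19Rik exceeded 1 CPM only in the OHT 3D library of this table and had to be high there to be tested. Of the other 5 genes, 3 were above a log2-fold-change of 0.58 at OHT 3D, namely Sall3, Inhbb and H2-M5, against 6.01% of the 13449 genes that exceeded 1 CPM in any library of this table. At OHT 4D, 4 of the 6 were above it, namely Sall3, 2410137M14Rik, Inhbb and H2-M5, against 6.48% of all genes. Above 1 were Sall3 and H2-M5 at OHT 3D, with 1.9% of all genes, and H2-M5 alone of the 6 at OHT 4D, with 2.38%. None of the 6 was below -0.58 at either time, where 5.88% and 8.89% of all genes were. 9330159F19Rik could not be, as its 0.402 CPM in WT is too low for such a fall with 1 CPM added. The median log2-fold-change was 0.71 for these 5 genes at OHT 3D and 0.69 for the 6 genes at OHT 4D, and that of all tested genes was -0.018 and -0.0033.

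Against 7.64 CPM in WT, Sall3 had 19.002 CPM at OHT 3D and 13.4 CPM at OHT 4D. It was 2.49-fold higher at OHT 3D, with an exact 95% counting interval of 2.08 to 2.99, and 1.75-fold higher at OHT 4D (1.45 to 2.13). Intervals here cover counting error only. H2-M5 had 52.9 CPM (OHT 3D) and 59.3 CPM (OHT 4D) against 21.9 in WT, which was 2.42-fold (2.17 to 2.69) and 2.71-fold (2.44 to 3.01) higher. Inhbb had 79.3, 130 and 124 CPM, which was 1.64-fold (1.55 to 1.74) and 1.57-fold (1.48 to 1.67) higher. These 3 genes were thus above WT at both times by more than counting error.

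The other 3 genes had fewer reads. 2410137M14Rik had 2.26 CPM (OHT 3D) and 3.50 CPM (OHT 4D) against 1.30 in WT, and its fold of 1.74 at OHT 3D had an interval of 1.08 to 2.86 and that of 2.70 at OHT 4D one of 1.75 to 4.29. 9330159F19Rik had 9 reads in WT (0.402 CPM), 62 at OHT 3D (2.81 CPM) and 17 at OHT 4D (0.745 CPM). It was 6.97-fold higher at OHT 3D (3.45 to 15.96). At OHT 4D its interval of 0.780 to 4.71 included 1. BC096441 had 4.16 CPM (OHT 3D) and 4.47 CPM (OHT 4D) against 4.47 in WT. Its intervals, 0.694 to 1.25 and 0.751 to 1.33, included 1 at both times.

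Up to 2 neighbours on each side of the 6 genes, or overlapping, made up 19 tested neighbours. At OHT 3D, 4 of the 19 were above 0.58 and 1 below -0.58, beside 6.01% and 5.88% of all genes. At OHT 4D, 2 were above and 1 below, beside 6.48% and 8.89%. The median of the 19 was 0.03 at OHT 3D and -0.04 at OHT 4D. Those below were Ralb beside Inhbb, with -0.71 at OHT 3D, and Zfp236 in the Sall3 region, with -0.77 at OHT 4D. Among those above, Nfatc1 in the Sall3 region had 1.13 (OHT 3D) and 0.93 (OHT 4D). Polr2a beside BC096441 had 0.86 and 0.05. Ralb, Zfp236, Nfatc1 and Polr2a were named here after their values were seen. The log2-fold-changes of Zfp57 were 0.71 (OHT 3D) and 0.68 (OHT 4D), beside 1.24 and 1.40 of H2-M5. 6330407J23Rik had 1.26 and 0.06 beside 1.44 and 0.32 of 9330159F19Rik. Fibroblast markers moved strongly at the same times. Of 22 tested, 21 were above 0.58 at OHT 3D and 21 at OHT 4D, where 6.01% and 6.48% of all genes were, and the summed CPM of the 24 genes without Fn1 reached 517 (OHT 3D) and 598 (OHT 4D) from 58.2 in WT. Several of the 22 exceeded 1 CPM only at OHT and had to be high there to be tested. S100a4, for example, had 0.268 CPM in WT and 0 at Tc 2D, against 7.51 and 14.5 at OHT. Of 12 tested primitive endoderm markers, 5 were above 0.58 at OHT 3D and 10 at OHT 4D, and 1 was below -0.58 at OHT 3D (5.88% of all genes) and 0 at OHT 4D (8.89%). Of 12 tested trophectoderm markers, 7 were above and 1 below at OHT 3D, and 8 above and 0 below at OHT 4D. Whether these markers bear on the values of Sall3, H2-M5 or Inhbb at OHT was not tested.

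At Tc 2D, values of Sall3, 2410137M14Rik, Inhbb and H2-M5 lay on the other side of WT than at OHT. All 6 genes were lower at Tc 2D than in WT, and 4 of them, Sall3, 2410137M14Rik, Inhbb and H2-M5, were below -0.58, as were 25.8% of all genes. 9330159F19Rik, at 0.402 CPM in WT, could not be below -0.58 with 1 CPM added. Below -1 were 3 of the 6, Sall3, Inhbb and H2-M5, as were 12.6% of all genes. None was above 0.58, against 23.9% of all genes. The median log2-fold-change was -1.36, beside -0.057 for all tested genes. This comparison uses the WT library of the other ES cell line, which cannot be told apart from the effect of tetracycline. The control libraries of ZHBTc4 cells were therefore set beside it, although they were sequenced and normalized apart and carried lentivirus. Against them all 6 genes were below -0.58, where 30.7% of 13586 genes were, and 18.3% of genes were above 0.58. The rule for the 6 genes used these control libraries, so this comparison is not free of it. In it, 9330159F19Rik and 2410137M14Rik exceeded 1 CPM only in the controls and had to be high there to be tested. Lineage and pluripotency genes also differed from WT at Tc 2D, where 23.9% of all genes were above 0.58 and 25.8% below -0.58. Of 12 tested trophectoderm genes 11 were above and 0 below, and of 15 pluripotency genes 1 was above and 13 below. Of 8 tested neuroectoderm genes 0 were above and 8 below. Against the ZHBTc4 controls, 10 trophectoderm genes were above and 0 below, and 0 pluripotency genes were above and 14 below. Of the neuroectoderm genes 0 were above and 5 below there, beside 18.3% and 30.7% of all genes. Whether these genes bear on the values of the 6 at Tc 2D was not tested.

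Against WT, Inhbb had the largest fold of the 6 genes. It had 1.69 CPM at Tc 2D, from 48 reads, which was 46.9-fold lower than in WT (35.2 to 63.8) and 38.8-fold and 27.2-fold lower than in the ZHBTc4 controls. H2-M5 had 3.17 CPM, 6.91-fold lower than in WT (5.51 to 8.75) and 28.6-fold and 23.3-fold lower than in the controls. Sall3 had 1.48 CPM, 5.16-fold lower than in WT (3.67 to 7.42) and 5.30-fold and 5.49-fold lower than in the controls. For Sall3 the references gave similar folds, whereas for H2-M5 the ZHBTc4 controls gave folds more than 3 times as large as WT did.

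2410137M14Rik had 6 reads at Tc 2D (0.211 CPM) against 29 in WT, which was 6.13-fold lower (2.501 to 18.1), and it was 72.2-fold (32.8 to 198) and 47.6-fold (21.5 to 131) lower than in the controls. With so few reads these intervals overlap those of Inhbb against the same controls, 29.1 to 52.9 and 20.4 to 37.1. 9330159F19Rik had 8 reads (0.282 CPM) at Tc 2D and 9 in WT, so that no difference was detectable at this depth, yet it was 15.5-fold (7.58 to 37.0) and 16.3-fold lower than in the controls. BC096441 had 3.17 CPM and was 1.41-fold lower than in WT (1.05 to 1.90) and 2.85-fold and 1.87-fold lower than in the controls.

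The 2 undepleted lines differed in the level of several of the 6 genes. The mean of the ZHBTc4 controls was 11.2 times the WT level for 9330159F19Rik, 9.77 times for 2410137M14Rik and 3.76 times for H2-M5. It was 1.68 times for BC096441, 1.04 times for Sall3 and 0.704 times for Inhbb. Line, table, sequencer and lentivirus all differ between these libraries and cannot be told apart.

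**Figure D3:**
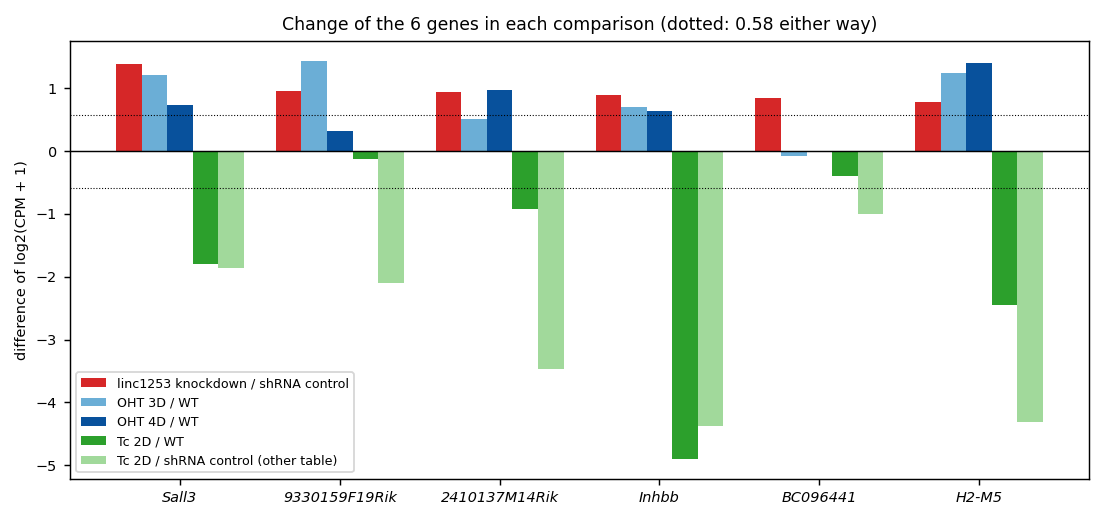
Difference of log2(CPM + 1) of each of the 6 genes for linc1253 knockdown against shRNA control (means of 2 libraries), OHT 3D, OHT 4D and Tc 2D against WT (1 library each), and Tc 2D against the mean of the shRNA controls. Bars for Tc 2D point down for all 6 genes, from -0.13 for 9330159F19Rik to -4.90 for Inhbb against WT, and OHT bars of BC096441 lie at -0.08 and -0.0006.

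Genes that act with Inhbb were followed as lists of ligands, receptors, antagonists and Smads. In the knockdown, 2 of 6 tested ligands were higher in both knockdown libraries and 0 lower, where 18.8% and 19.2% of all genes were. Their median log2-fold-change was 0.29 beside -0.0011 for all tested genes, and it became 0.18 without knockdown replicate 1 and 0.16 with a pseudocount of 3. Gdf3, a Nodal-related ligand, had a CPM of 40.0 and 45.5 in the controls and 55.4 and 58.1 in the knockdown (0.40). Nodal, named after its values were seen as the other of the 2, had 42.5 and 44.6 in the controls and 62.9 and 52.9 in the knockdown. Inhba, which encodes the beta A subunit, was at or below 1.23 CPM in all 4 libraries, and Inha, the partner of Inhbb in inhibin B, was between 0.784 and 1.12.

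Among 6 antagonists 2 were higher in both and 0 lower, beside the same shares of all genes (18.8% and 19.2%), with a median of 0.20. Lefty1, an inhibitor of Nodal, had 19.7 and 20.7 CPM in the controls and 39.1 and 26.9 in the knockdown (0.66), and Fst, which encodes the activin-binding follistatin, 4.98 and 6.67 in the controls and 8.17 and 7.41 in the knockdown (0.37). Of 6 receptors and coreceptors 3 were higher and 1 lower, with a median of 0.11 (0.06 without knockdown replicate 1), and of 4 Smads and partners 1 was higher and 0 lower, with a median of 0.09 (0.05 without control replicate 1 and 0.18 without control replicate 2). None of these genes was called by limma, edgeR or DESeq2 after adjustment.

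At Tc 2D, genes of these lists differed from WT in both directions. Gdf3 had 54.8 CPM in WT and 1.45 at Tc 2D, Lefty1 had 195 and 0.388, and the coreceptor Tdgf1 had 678 and 7.79. Smad6, an inhibitory Smad, was higher, with 4.87 and 24.8. Of 7 tested ligands 4 were below -0.58 and 1 above 0.58, where 25.8% and 23.9% of all genes were. Of 7 antagonists 3 were below and 4 above, with a median of 0.81, and of 6 receptors and coreceptors 1 was below, Tdgf1, and 3 above, with a median of 0.66. Against the ZHBTc4 controls, where 30.7% of all genes were below and 18.3% above, the median of the antagonists changed sign to -0.15, with 3 below and 3 above. That of the ligands went from -0.66 to -0.12, with 3 below and 1 above, and that of the receptors was 0.58. At OHT 3D, 2 of 7 tested ligands were above 0.58 and 0 below -0.58, and of 7 antagonists 1 was above and 2 below, beside 6.01% and 5.88% of all genes. At OHT 4D, 2 ligands were above and 0 below, and 1 antagonist was above and 1 below, beside 6.48% and 8.89%. The median of the antagonists went from -0.11 at OHT 3D to 0.32 at OHT 4D. Inhba, counted among the ligands above, had 0.268 CPM in WT and 0.0352 at Tc 2D. It had 8.32 and 2.98 at OHT and had to be high there to be tested.

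H2-M5 was set beside the other class I genes of the MHC. Of 26 listed genes 10 were tested, with 1 higher in both knockdown libraries, 2 lower (18.8% and 19.2% of all genes) and a median of 0.06. That median changed sign to -0.07 without control replicate 2 and to -0.12 without knockdown replicate 1, and was 0.14 without control replicate 1 and 0.22 without knockdown replicate 2. H2-T23 had the highest log2-fold-change of these, 0.33, at 0.784 and 0.731 CPM in the controls and 1.31 and 1.10 in the knockdown. H2-Bl had the lowest, -0.64, at 7.33 and 4.65 in the controls and 4.51 and 2.499 in the knockdown. Reads of class I genes can align at more than 1 of them, and reads with several locations were kept at alignment, so the counts of H2-M5 and its relatives are uncertain. Of 9 tested genes for peptide loading, 2 were higher and 0 lower (median 0.11, and 0.06 without control replicate 2), and of 12 interferon-response genes 3 were higher and 3 lower (median 0.02, with 0.06 without knockdown replicate 1 and -0.0067 without knockdown replicate 2).

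Lineage and pluripotency lists were counted in the same way. Of 7 tested neuroectoderm genes 3 were higher in both knockdown libraries and 2 lower, where 18.8% and 19.2% of all genes were. Their median was 0.05, with 0.09 without control replicate 2 and 0.03 without knockdown replicate 1. Zic2, a zinc finger gene of early neural tissue, had 42.7 and 35.9 CPM in the controls and 67.9 and 56.1 in the knockdown (0.64), and DESeq2 alone called it, with an adjusted p of 0.0233. Of 10 trophectoderm genes 0 were higher and 4 lower, beside the same 18.8% and 19.2% of all genes. Their median of -0.13 became -0.04 without control replicate 1 and -0.20 without control replicate 2. Of 15 pluripotency genes 3 were higher, a share near the 18.8% of all genes, and 1 lower. Their median of 0.11 changed sign to -0.05 without control replicate 2 and became 0.03 without knockdown replicate 1, 0.18 without control replicate 1 and 0.17 without knockdown replicate 2. Over all 13 lists, 119 genes were tested. limma called 0 of them after adjustment, with 7 up and 4 down at an unadjusted p of 0.05 (3.7% and 3.75% of all genes), and edgeR called 0.

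**Figure D4:**
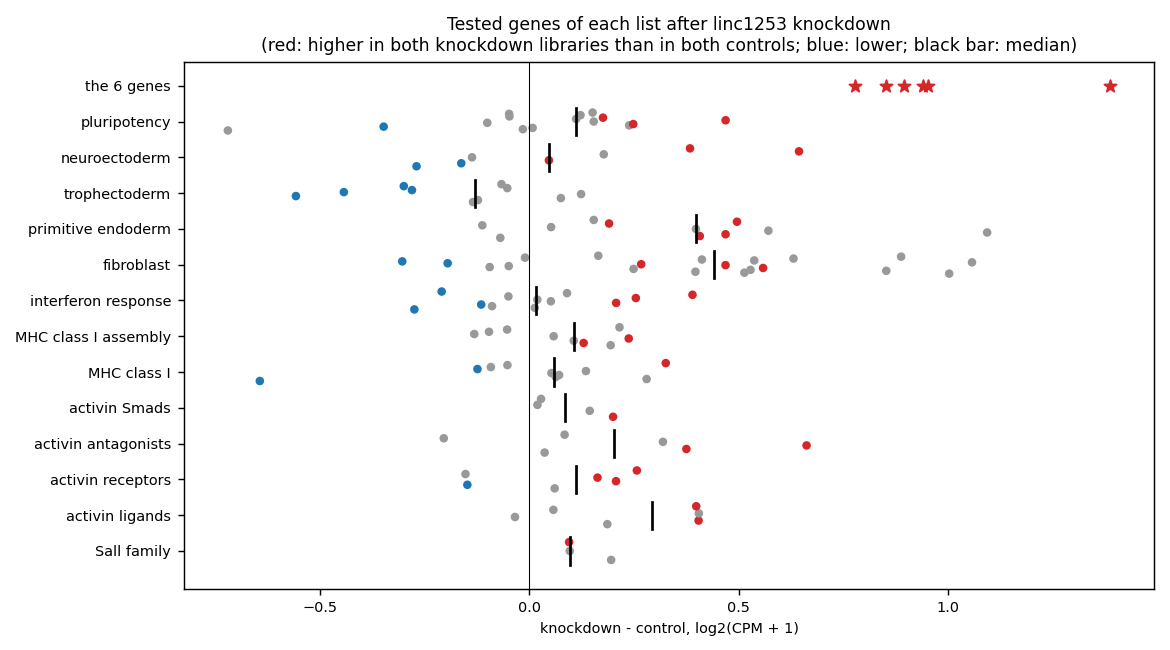
Difference of mean log2(CPM + 1) between knockdown and control libraries for each tested gene of 13 lists and for the 6 genes (stars). Red points were higher and blue points lower in both knockdown libraries than in both controls, and black bars are medians. List medians lie between -0.13 for trophectoderm and 0.44 for fibroblast genes, and the 6 genes, listed for their high values, between 0.78 and 1.39.

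At the promoters, Pontin ChIP-seq exceeded GFP by more than counting error at H2-M5 within 1 kb of the start, and in the longer window at none of the 6 genes. How many of all promoters would do so within 1 kb was not counted. On reads, their median log2 ratio there was 0.53 and that of H2-M5 was 0.92, at percentile 69.8. The interval of H2-M5 (0.22 to 2.47) is on fragments, for which no median of all promoters was computed. H2-M5 was thus not shown to be set apart from promoters in general. In the longer window, reads were counted from 2.5 kb before to 500 b after the start. They were scaled by the library totals of 40729076 reads for Pontin and 17185883 for GFP. There is 1 library per antibody and thus no test. The median log2 ratio of the 21178 promoters that had reads of both antibodies was 0.34 and 14.8% were above 1. Of the 6, Inhbb alone had a log2 ratio above 1.

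Inhbb had 94 Pontin reads and 17 GFP reads, a log2 ratio of 1.22, at percentile 91.3 of all promoters. Both reads of a pair come from 1 fragment, and on fragments the log2 ratio was 0.91 with an exact 95% interval of -0.05 to 2.00. H2-M5 had 90 and 22 reads (0.79, percentile 76.5), and its neighbour 2410137M14Rik had 83 and 23 (0.61, percentile 66.9). The windows of these neighbours do not overlap. Sall3, with the CpG-richest promoter of the 6, had 60 and 29 reads (-0.20, percentile 20.6). BC096441 had 74 and 48 reads (-0.62, percentile 7.62) and 9330159F19Rik had 43 and 28 (-0.63, percentile 7.53). Within 1 kb either side of the start the log2 ratio of Sall3 was 0.42 and that of BC096441 0.36, both of the other sign than in the longer window, while the median of all promoters was 0.53. There Inhbb had 1.54, H2-M5 0.92, 2410137M14Rik 0.90 and 9330159F19Rik -0.63. On fragments, 51 of Pontin and 9 of GFP, the log2 ratio at H2-M5 was 1.26 with an interval of 0.22 to 2.47, and the intervals of the other 5 genes included 0, as for Inhbb with -0.03 to 2.57. Read ratios of H2-M5 stood at percentile 69.8 of all promoters in this window and those of Inhbb at 90.03.

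**Figure D5:**
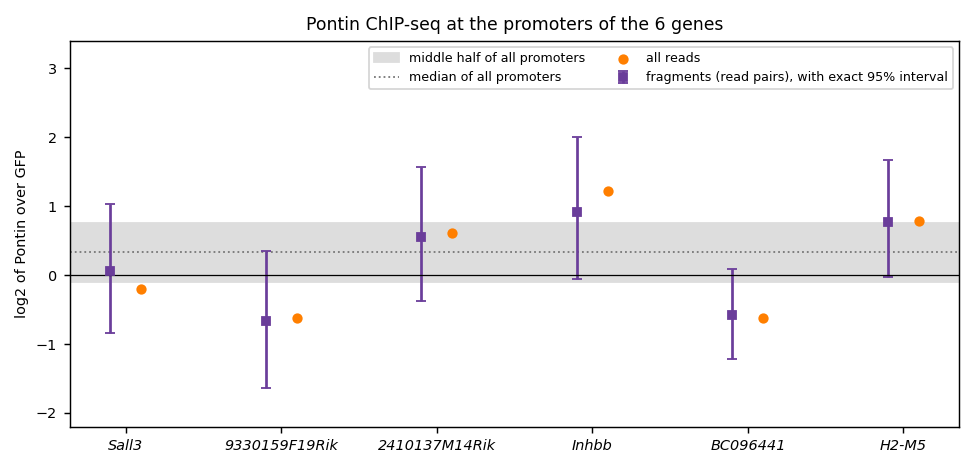
Log2 ratio of Pontin to GFP ChIP-seq at the promoters of the 6 genes, from all reads (orange) and from fragments with their exact 95% counting interval (purple). The grey band spans the lower to the upper quartile of all promoters, -0.099 to 0.76, and in this window, from 2.5 kb before to 500 b after the start, all 6 intervals include 0.

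Genes whose pattern over the 8 libraries was most like that of each of the 6 were ranked by Pearson's r of log2(CPM + 1), centred within each table, among 9956 or 9957 genes that averaged at least 5 CPM in each table. The values are descriptions, since libraries share a control, Tc 2D weighs heavily and the 4 shRNA libraries chose the 6 genes. Closest to Sall3 were Pole3 (r = 0.992), 1810008A18Rik and Shisa2, and closest to H2-M5 were Asb6 (r = 0.998), Mgat2 and Rnmtl1. Closest to Inhbb were Dse (r = 0.998), Prx and Jam2. Pearson's r takes no account of the size of a change. Dse had log2-fold-changes of 0.10 after knockdown and -0.49 at Tc 2D, against 0.90 and -4.90 for Inhbb. Jam2 had log2-fold-changes of 0.58 after knockdown and -4.37 at Tc 2D. At OHT it had 0.49 and 0.52, below the fold threshold of 0.58. Closest to 2410137M14Rik were Fkbpl (r = 0.991), Men1 and Stk16, to 9330159F19Rik Tceb3 (r = 0.956), Tmed5 and Ext1, and to BC096441 Ank (r = 0.944), 2610024G14Rik and Usp30.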

How the data were processed

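The 6 genes, the gene lists and the tests were chosen with earlier results of these data known. Poly(A) mRNA was sequenced (one Illumina sequencer for WT, OHT and Tc libraries, a later one for shRNA and ChIP libraries). The authors trimmed reads with cutadapt, aligned them to NCBIM37 with TopHat, which keeps reads with several locations, counted them with HTSeq and deposited CPM after TMM normalization in edgeR, separately for the 2 tables of 4 libraries. Tool versions are not given in the sources used here. In each library, 100% of the values were multiples of the value of 1 read (tolerance 0.01 read), so the reads were recovered. For ChIP-seq, the deposited files list aligned reads (Bowtie2) by position with a mapping quality score, at least 5, and duplicates were kept.

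Symbols matched 22337 of 22713 IDs. Genes above 1 CPM in at least 1 library of a table were kept, and log2-fold-changes are differences of log2(CPM + 1), which understate the change of low genes. All genes were fitted with limma 3.58.1 with trend, 2 knockdown against 2 control libraries, with Benjamini-Hochberg adjustment. edgeR 4.0.16 (quasi-likelihood) and DESeq2 1.42.0 were run on recovered reads in R 4.3.3. A log2-fold-change past 0.58 either way was the fold threshold for single libraries, as in the study. Counting intervals are exact at 95%, by Clopper-Pearson for ratios and by the Poisson distribution for CPM, and cover counting error only. Scripts were tested on simulated data. Python 3.11.15 with numpy 2.4.6, pandas 2.3.3 and scipy 1.17.1 was used.

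Named were the 6 genes, Ruvbl1 and Pou5f1, the 3 highest-ranked genes outside the 6, up to 2 rises and 2 falls of each list with its defining roles, the nearest expressed neighbours and the 3 most alike genes. Not every gene so selected is described. Promoter sequences were read from the NCBIM37 genome. Alternatives were other pseudocounts, filters and scalings, edgeR, DESeq2, a replicate block, single libraries left out, a threshold of 1, ZHBTc4 controls for Tc 2D, and for ChIP-seq other windows, starts and 1 read per position. Added after seeing the data was 1 median-ratio scale for all 8 libraries.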

Additional observations from a re-analysis of the deposited data

How the results depend on the processing

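The rule for the 6 genes fixes the direction of their knockdown values with any library left out, so that direction says nothing about stability. The log2-fold-changes with 1 library left out ranged from 1.33 to 1.45 for Sall3 to 0.56 to 1.14 for BC096441. The counts over all genes depended on the model. The libraries share replicate numbers 1 and 2 between the groups, but no label says that the numbers pair them. Deviations of same-numbered libraries from their group means correlated at 0.67 over 13407 genes, and with 2 pairs this is a hint only. In limma with a replicate block, calls came to 933 genes up and 1027 down in place of 0 and 0, and DESeq2 called 22 and 28. With 1 library left out, where the lone library of a group is assumed to vary like the other group, limma called 0 to 16 genes up and 0 to 3 down, with 1 and 3 without control replicate 2 and 16 and 3 without knockdown replicate 1. The count of genes higher in every knockdown than in every control library, 2520, became 4385 to 4804 with 1 library left out, as fewer libraries have to be in order.

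At a threshold of 1, 1 of the 6 genes was called up at OHT 4D (H2-M5, with 2.38% of all genes) in place of 4, and 3 in place of 4 at OHT 3D (9330159F19Rik counted, 1.9% of all genes) and 3 in place of 4 down at Tc 2D (12.6%). With a pseudocount of 0.5, 5 of the 6 were up at OHT 3D, 9330159F19Rik counted. On 1 median-ratio scale all 6 stayed below -0.58 at Tc 2D against the ZHBTc4 controls, which the rule for the 6 genes used. For neither setting was the share of all genes counted, so these counts have no background. The ChIP-seq ratio of BC096441 went from -0.62 to 0.36 within 1 kb of the start. Depth limits 9330159F19Rik and 2410137M14Rik most, with 8 and 6 reads at Tc 2D.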
